A study of Mus musculus with 10 samples.

Results

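Levels of 10 collagen genes were examined in the back wall of the mouse eye. They encode collagens of basement membranes and of Bruch's membrane, the thin matrix sheet between the retinal pigment epithelium (RPE) and the choroidal capillaries. The genes were chosen by name: the 6 type IV collagen chains Col4a1 to Col4a6, the type VIII chains Col8a1 and Col8a2, and the chains of types XV and XVIII, Col15a1 and Col18a1. All 10 were among the 26360 genes listed, and all 10 had a mean of at least 1 CPM (a gene's reads scaled to the library's total), the level needed to enter the tests, as 15414 genes did.

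The 10 RNA sequencing libraries came from 5 wild type C57BL/6J mice at postnatal day 34, with 1 library from the right eye (n = 5) and 1 from the left eye (n = 5) of each. All animals had worn a -20 D lens over 1 eye for 10 days from postnatal day 24, a treatment that induces myopia, and the other eye of the same animal was the untreated control. The labels name the side of each eye but not the eye that wore the lens. Right and left eyes are therefore compared here, and the sign of a difference carries no treatment meaning. The tissue was labelled RPE, choroid and sclera, although the extraction protocol speaks of retinae.

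Type IV collagen is the network-forming collagen of basement membranes. Its chains join in fixed trimers: Col4a1 and Col4a2 chains form the trimer found in nearly all basement membranes, Col4a3, Col4a4 and Col4a5 chains form the trimer known from the kidney glomerulus and the lens capsule, and Col4a5 and Col4a6 chains form one known from smooth muscle and skin. In the eye the Col4a1 and Col4a2 network underlies both the RPE and the capillary endothelium at the faces of Bruch's membrane. Type VIII collagen is a short-chain collagen that forms hexagonal lattices, known from Descemet's membrane of the cornea and from vessel walls. Types XV and XVIII carry glycosaminoglycan chains, lie at the outer face of basement membranes and release antiangiogenic fragments, of which endostatin from type XVIII is the best known. In humans, loss of COL18A1 causes Knobloch syndrome, which includes high myopia, and mutations in COL4A3, COL4A4 and COL4A5 cause Alport syndrome.

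The 6 type IV genes lie as head-to-head pairs, and the sequence around their starts is shown because the levels of some of these pairs moved together, as described further on. Coordinates are 1-based on GRCm38. Col4a1 (chromosome 8, 11198423 to 11312826, minus strand) and Col4a2 (chromosome 8, 11312805 to 11449287, plus strand) overlap by 22 bases at their 5′ ends. Col4a4 (chromosome 1, 82448423 to 82586849, minus strand) and Col4a3 (chromosome 1, 82586921 to 82722059, plus strand) are 71 bases apart. Col4a6 (chromosome X, 141165403 to 141474076, minus strand) and Col4a5 (chromosome X, 141475385 to 141689234, plus strand) are 1308 bases apart. The sequences are from RefSeq promoter windows of GRCm38.p6 and are written 5′ to 3′ on the plus strand. Capitals mark the GC box letters GGGCGG and the CCAAT box letters CCAAT on either strand. The first runs over chr8:11312801-11312830 and holds the overlap of both genes, the second over chr1:82586850-82586920 and is the whole gap between both starts, and the others over chrX:141474077-141474326 and chrX:141475169-141475384 and are the parts next to each start that lie outside annotated exons.
Col4a1/Col4a2: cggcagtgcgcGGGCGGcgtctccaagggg
Col4a3/Col4a4: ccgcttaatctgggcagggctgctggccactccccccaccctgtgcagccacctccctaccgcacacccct
Col4a6: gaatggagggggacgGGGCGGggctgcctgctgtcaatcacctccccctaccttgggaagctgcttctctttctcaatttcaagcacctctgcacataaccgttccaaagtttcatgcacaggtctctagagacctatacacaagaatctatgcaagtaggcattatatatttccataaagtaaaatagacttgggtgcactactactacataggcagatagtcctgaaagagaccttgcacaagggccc
Col4a5: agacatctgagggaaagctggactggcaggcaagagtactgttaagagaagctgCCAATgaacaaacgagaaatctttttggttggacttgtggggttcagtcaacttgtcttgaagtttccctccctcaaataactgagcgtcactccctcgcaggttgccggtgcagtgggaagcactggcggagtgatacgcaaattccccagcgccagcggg

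Promoter windows of 300 bases (250 before to 50 after a start) were found for 9 of the 10 genes. The windows of Col4a1 and Col4a2 were 74.0% and 73.7% G or C, against a median of 52.7% over 32851 mouse promoter windows. Those of Col4a5 and Col4a6 were 52.7% and 48.3% G or C. At least 1 GC box was present in the windows of Col4a1, Col4a2, Col4a5, Col4a6, Col8a1 and Col8a2 and in 35.7% of all windows. The windows of Col4a1 and Col4a2 overlap, and the only GC box of the Col4a1 window, shown above, lies in both. The type VIII windows held 4 GC boxes each. A CCAAT box was present in those of Col4a1, Col4a2 and Col4a5 and in 37.4% of all windows. The TATA box letters TATAAA were in none of the members' windows and in 13.6% of all windows. Col18a1 has 2 listed windows, which belong to separate starts; the upstream one held 3 GC boxes and 1 CCAAT box and the downstream one held neither. These matches describe letters in a window only.

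The tissue carried the markers of its labelled layers in every library, and markers of neighbouring tissue as well. The RPE list of 11 genes summed to 5398 to 7167 CPM in right and 5183 to 5860 CPM in left eyes, the endothelial list of 12 genes to 515 to 722 CPM and 564 to 622 CPM, and the scleral fibroblast list of 9 genes to 6657 to 9327 CPM and 6370 to 9293 CPM. Lens crystallin and fibre genes summed to 130 to 944 CPM in right and 108 to 409 CPM in left eyes, and surface epithelium and cornea genes to 114 to 563 CPM in right and 243 to 829 CPM in left eyes. Skeletal muscle genes summed to 3585 to 7476 CPM in right and 2014 to 9379 CPM in left eyes, and rod photoreceptor genes to 149.6 to 1847 CPM in right and 225 to 880.2 CPM in left eyes. No gene of these lists was at 0 in all libraries. Library totals implied by the steps between low values were 66.9 to 94.3 M reads, at which 3 reads correspond to 0.0318 to 0.0448 CPM, so all 10 collagens stood far above the counting floor.

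Per kilobase of annotated exon, type VIII collagen had the highest levels of the group and type XV the lowest. Mean levels over the 10 libraries were 121.5 CPM per kb for Col8a2, 63.7 for Col8a1, 20.7 for Col18a1, 17.0 for Col4a2, 16.6 for Col4a1, 9.27 for Col4a5, 7.96 for Col4a3, 5.91 for Col4a4, 4.81 for Col4a6 and 3.02 for Col15a1, all in CPM per kb. The ranges over libraries did not overlap between Col8a2 and Col8a1, between Col8a1 and Col18a1, between Col4a1 and Col4a5, or between Col4a3 and Col4a4. They overlapped for Col18a1 and Col4a2, for Col4a2 and Col4a1, for Col4a5 and Col4a3, for Col4a4 and Col4a6, and for Col4a6 and Col15a1, so that these neighbours in the order are not separated by their spread. With the longest transcript as the length, Col8a1 moved to 97.7 CPM per kb, Col18a1 to 25.9 and Col4a3 to 9.28 CPM per kb. The order of means changed only in that Col4a1 stood above Col4a2. The ranges of Col8a1 (83.5 to 113.4 CPM per kb) and Col8a2 (107.7 to 144 CPM per kb) then overlapped, so their separation depends on the length used. In tissue of mixed cells, fewer cells of a type and less RNA per cell cannot be told apart.

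**Figure D1:**
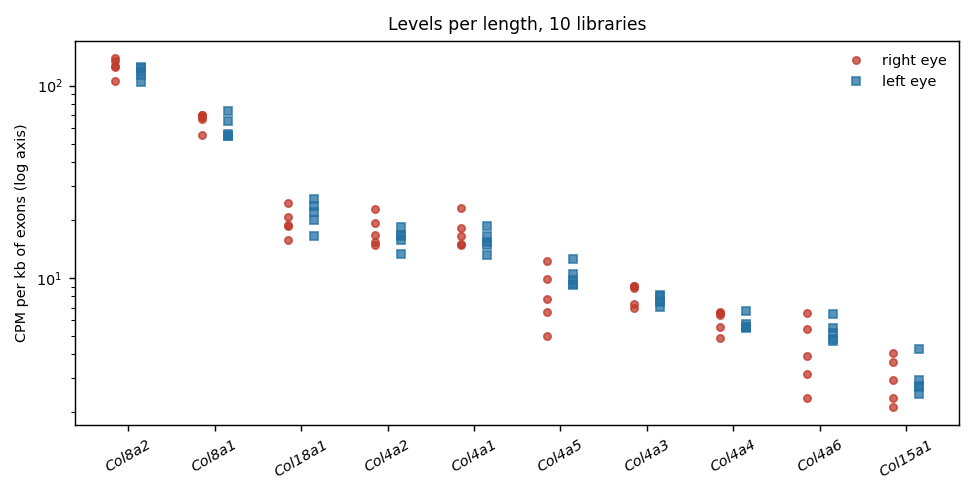
Level per kilobase of annotated exon (CPM per kb, log axis) of each collagen gene in the 5 right-eye libraries (circles) and the 5 left-eye libraries (squares), ordered by mean. Col8a2 (mean 121.5) and Col8a1 (mean 63.7) stand above the other 8 genes in every library, and Col15a1 has the lowest mean, 3.02.

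The comparison of eyes asked which collagens differed between the right and the left eye of the same animals. With the animal entered as a block in limma, none of the 10 reached an adjusted p of 0.05 (adjusted p = 0.9998 for each), and none had an unadjusted p under 0.05. In the same fit 0 of all 15414 genes passed (0%), and 430 (2.79%) had an unadjusted p under 0.05. Without animal 64, 3 members had an unadjusted p under 0.05, and without animal 68, 2 had, with no adjusted p under 0.05 in limma. The share of all genes with such a p was not taken without these animals, so these counts say nothing particular about the members. The right-minus-left difference was above 0 for 6 members and below 0 for 4, with a median of 0.07 on the log2 scale, against -0.01 over all genes tested. For no member did the values of right and left eyes stay apart, as they did for 0.214% of all genes, and no member had the same direction in 5 of 5 animals, as 4.44% of all genes did.

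Type VIII collagen was the most abundant type per kilobase, and its chains had an SD over the 10 libraries of 0.18 for Col8a1 and 0.14 for Col8a2 on the log2 scale, against a median of 0.16 over all genes tested. Col8a1 lies on the minus strand of chromosome 16 from 57624258 to 57754737. It was at 549.9, 434.7, 554, 536 and 526 CPM in the right eyes of animals 61, 64, 65, 66 and 68, and at 515, 426, 439, 428 and 579 CPM in their left eyes. Both eyes of animal 64 and the left eyes of animals 65 and 66 were low, and the groups overlapped. The log2 difference was 0.13 ± 0.08 (SE), with a 95% interval from -0.06 to 0.32, and the right eye was higher in 4 of 5 animals. Col8a2 lies on the plus strand of chromosome 4 from 126286793 to 126314330. It was at 566, 475, 605, 624 and 560 CPM in the same right eyes and at 563, 510, 466 and 526 CPM in the left eyes of animals 61, 64, 65 and 66 and 556 CPM in that of animal 68. Its right eyes of animals 65 and 66 were the highest libraries and its left eye of animal 65 the lowest, and again the groups overlapped. The log2 difference was 0.11 ± 0.08 (SE), with a 95% interval from -0.08 to 0.30. Slc4a11 encodes a transporter of corneal endothelium, the cell type that lays down Descemet's membrane. It was at 0.834 to 2.44 CPM in right and 0.796 to 4.95 CPM in left eyes. The surface epithelium and cornea list that holds it summed to 114 to 563 CPM and 243 to 829 CPM. The part of corneal tissue in the type VIII levels was not tested.

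Col4a1 and Col4a2, the common basement membrane chains, were highest in the right eye and lowest in the left eye of the same animal. Col4a1 was at 123, 112, 172, 136 and 111 CPM in the right eyes of animals 61, 64, 65, 66 and 68, and at 124, 111, 98.1, 115 and 139 CPM in their left eyes. Col4a2 was at 110, 98.004, 151, 128 and 101 CPM in the right eyes and at 109, 111, 88.0, 105 and 121 CPM in the left eyes. The fellow-eye difference of animal 65 stood out in both genes, at 0.81 for Col4a1 and 0.78 for Col4a2 on the log2 scale. In the fit over all animals the log2 difference was 0.15 ± 0.15 (SE) for Col4a1 and 0.13 ± 0.14 (SE) for Col4a2, with 95% intervals from -0.19 to 0.49 and from -0.21 to 0.47. Without animal 65 these differences were -0.018 and -0.034. The right eye of animal 65 also had the highest lens list sum of the 10 libraries, 944 CPM against 287 CPM in its left eye, and its sums were also higher for the RPE list (7146 CPM against 5183 CPM), the endothelial list (682 CPM against 564 CPM) and the scleral fibroblast list (7751 CPM against 6370 CPM). The part of these tissues in the difference was not tested.

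Col4a3 and Col4a4, partners of Col4a5 in the glomerular and lens capsule trimer, varied less than Col4a5 did. Their SDs over the 10 libraries, 0.14 and 0.16 on the log2 scale, were near the median of 0.16 over all genes tested. Col4a3 was at 88.1, 69.7, 89.9, 90.6 and 73.0 CPM in the right eyes of animals 61, 64, 65, 66 and 68, and at 74.6, 70.5, 75.9, 80.0 and 81.3 CPM in their left eyes. Col4a4 was at 70.7, 58.6, 69.3, 68.2 and 51.5 CPM in the right eyes and at 71.7, 58.9, 58.1, 58.7 and 61.04 CPM in the left eyes. For both genes the right eyes of animals 61, 65 and 66 were among the 4 highest libraries, and right and left eyes overlapped. The log2 difference was 0.10 ± 0.07 (SE) for Col4a3 and 0.04 ± 0.08 (SE) for Col4a4, with 95% intervals from -0.07 to 0.26 and from -0.14 to 0.22.

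Col4a5 and Col4a6 had the widest swings of the group. Col4a5 was at 44.6, 82.1, 66.2, 33.3 and 51.9 CPM in the right eyes of animals 61, 64, 65, 66 and 68, and at 61.8, 62.6, 70.2, 84.0 and 65.8 CPM in their left eyes. Col4a6 was at 25.1, 52.3, 43.2, 18.9 and 31.3 CPM in the right eyes and at 37.4, 38.5, 43.9, 51.7 and 41.2 CPM in the left eyes. Both genes were lowest in the right eye of animal 66, whose left eye was the highest library for Col4a5 and the second highest for Col4a6. The ratio of the highest to the lowest library was 2.52 for Col4a5 and 2.77 for Col4a6, against 1.30 for Col4a3. The log2 difference was -0.36 ± 0.21 (SE) for Col4a5 and -0.40 ± 0.24 (SE) for Col4a6, lower in the right eye in 4 of 5 animals for each. The 95% intervals ran from -0.86 to 0.13 and from -0.95 to 0.16, which correspond to a right-eye level of 0.550 to 1.097 times the left-eye level for Col4a5 and of 0.516 to 1.114 times for Col4a6. Without animal 66 the differences were -0.12 and -0.14.

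**Figure D2:**
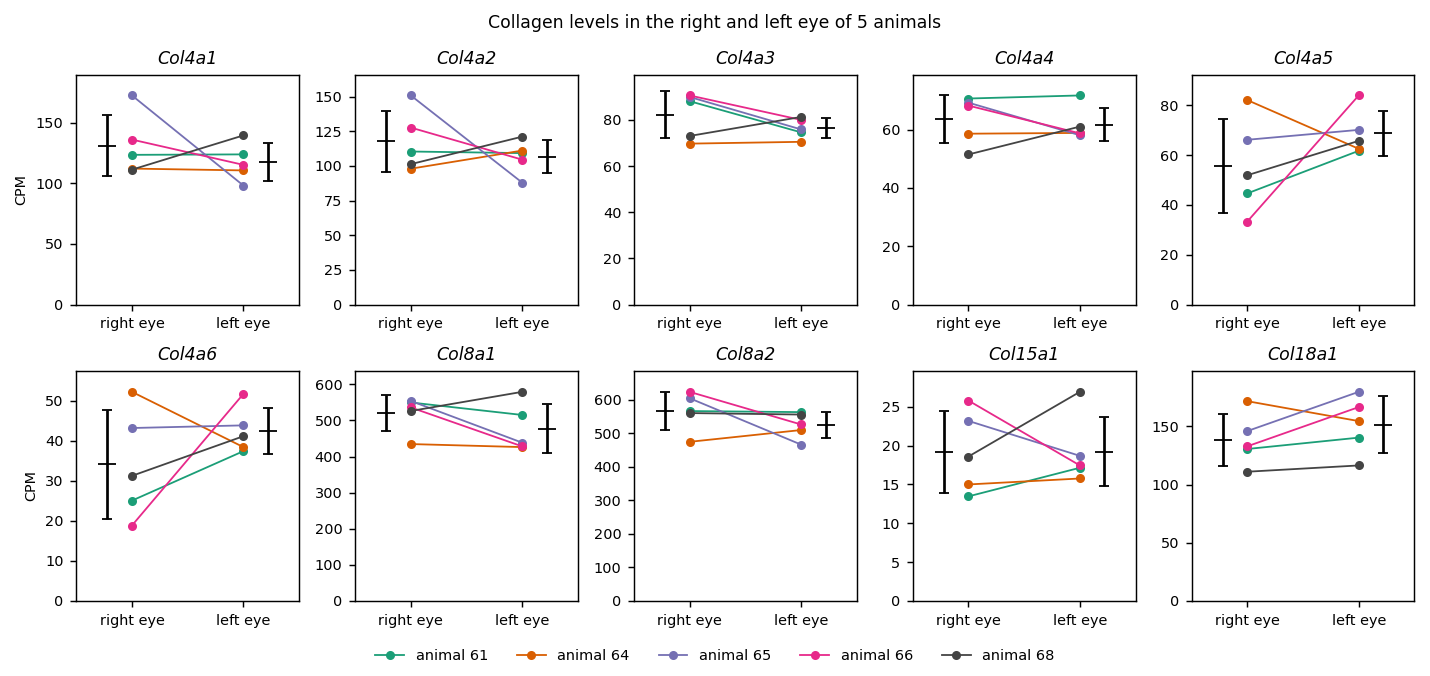
Level (CPM, axis from 0) of each collagen gene in the right and left eye of 5 animals, with lines joining fellow eyes and black bars giving the mean and SD of each side (n = 5). Fellow eyes of animal 65 differ most for Col4a1 and Col4a2, and those of animal 66 for Col4a5 and Col4a6, where the right eye is at 33.3 and 18.9 CPM.

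Type XV and type XVIII collagen, related in structure, moved differently. Col15a1, on the plus strand of chromosome 4 from 47208161 to 47313167, was at 13.5, 14.99, 23.2, 25.8 and 18.6 CPM in the right eyes of animals 61, 64, 65, 66 and 68, and at 17.1, 15.8, 18.7, 17.4 and 26.9 CPM in their left eyes. Col18a1, on the minus strand of chromosome 10 from 77052178 to 77166548, was at 131, 172, 146, 133 and 111 CPM in the right eyes and at 140, 155, 180, 167 and 116 CPM in the left eyes. The library highest for Col15a1, the left eye of animal 68, was the second lowest for Col18a1, and the groups overlapped in both genes. The log2 difference was -0.02 ± 0.16 (SE) for Col15a1, with a 95% interval from -0.38 to 0.35, and -0.13 ± 0.08 (SE) for Col18a1, with a 95% interval from -0.31 to 0.05 and the lower level in the right eye of 4 of 5 animals. Col18a1 overlaps Slc19a1, the reduced folate carrier gene, over 8825 bases on the opposite strand; Slc19a1 averaged 20.8 CPM, and as no source used here says whether counting used strand, reads of the overlap cannot be assigned with certainty.

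**Figure D3:**
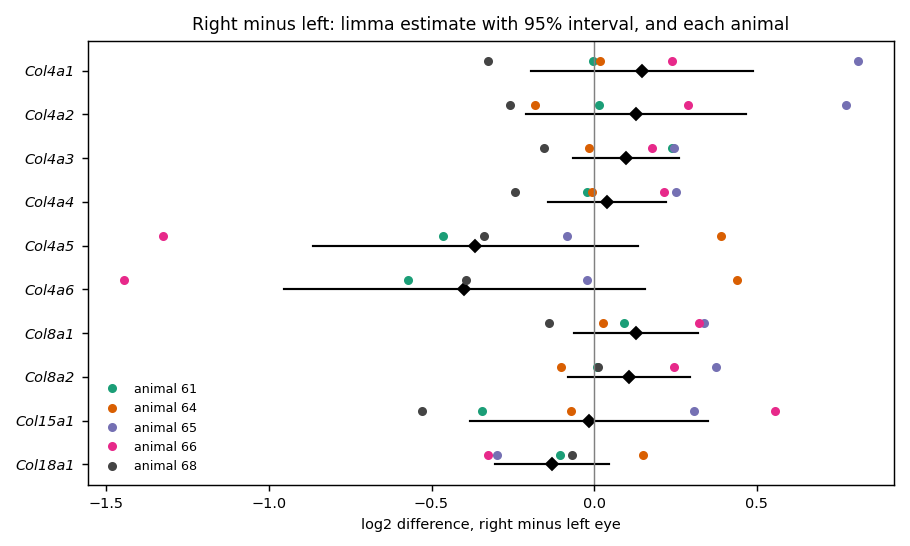
Right-minus-left difference (log2 scale) of each collagen gene: black diamonds and lines give the limma estimate and its 95% interval, and coloured points give each of the 5 animals. Every interval includes 0, and the intervals of Col4a5 and Col4a6 are the widest, reaching -0.86 and -0.95.

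Because the side of the lens is unknown, the size of the fellow-eye difference was also taken without its sign. The median absolute log2 difference between fellow eyes was 0.39 for Col4a5, 0.44 for Col4a6 and 0.34 for Col15a1, against a median of 0.14 over all genes tested. It was 0.24 and 0.26 for Col4a1 and Col4a2, 0.18 and 0.22 for Col4a3 and Col4a4, 0.14 and 0.10 for Col8a1 and Col8a2, and 0.15 for Col18a1. Lens wear, eye side, dissection and library error cannot be told apart in these values.

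The second comparison asked whether a collagen differed between animals by more than between the eyes of an animal, with limma's moderated F test of the animal term. None of the 10 reached an adjusted p of 0.05, as 13 of 15414 genes did (0.0843%), most of them sex-linked. Col18a1 had the smallest p, with an unadjusted p of 0.0148 in limma and an adjusted p of 0.546, and an unadjusted p under 0.05 was reached by 7.22% of all genes. Its levels were lowest in both eyes of animal 68, at 111 and 116 CPM in the right and left eye. The F statistic was 0.27 for Col4a1 and 0.14 for Col4a2. Over the fits with a whole animal left out it reached at most 0.77 and 0.40, with no adjusted p in limma under 0.05. With only the right eye of animal 65 left out it was 1.72 and 1.57, and with only its left eye left out 3.78 and 2.77. In those fits the other eye of animal 65 stood alone for its animal.

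The chains of a head-to-head pair were then compared within each library. The log2 ratio of Col4a1 to Col4a2 was 0.15 ± 0.04 in right and 0.13 ± 0.08 in left eyes (SD, n = 5 each), and the ratio in CPM lay between 0.9955 and 1.151 in all libraries. Per kilobase it averaged 0.981. The log2 ratio of Col4a5 to Col4a6 was 0.73 ± 0.10 in right and 0.69 ± 0.02 in left eyes (SD, n = 5 each), so that Col4a5 was 1.53 to 1.78 times Col4a6 in CPM although each gene varied 2.52-fold to 2.77-fold between libraries. The log2 ratio of Col4a3 to Col4a4 was 0.37 ± 0.10 in right and 0.31 ± 0.16 in left eyes (SD, n = 5 each), and that of Col8a1 to Col8a2, genes on different chromosomes, was -0.12 ± 0.06 and -0.14 ± 0.14.

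**Figure D4:**
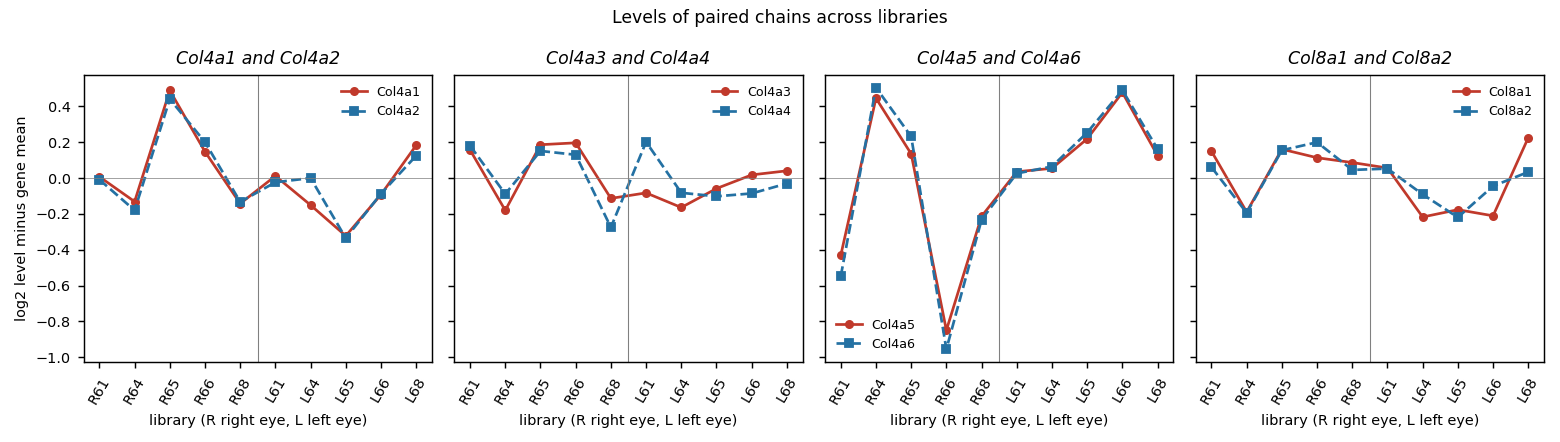
Log2 level of each gene of a pair minus its mean over the 10 libraries, for Col4a1 and Col4a2, Col4a3 and Col4a4, Col4a5 and Col4a6, and Col8a1 and Col8a2; right eyes stand left of the vertical line and left eyes right of it. The lines of Col4a1 and Col4a2 and of Col4a5 and Col4a6 nearly coincide, with SDs of their log2 ratio of 0.06 and 0.07.

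Likeness of 2 genes was measured as the SD of their log2 ratio over the 10 libraries, a small value meaning that both moved together, and all genes averaging 5 CPM or more were ranked by it. Col4a2 was the nearest of 10383 genes to Col4a1, and Col4a1 the nearest to Col4a2 (SD 0.06). Col4a6 was the nearest to Col4a5, and Col4a5 the nearest to Col4a6 (SD 0.07). Over the 9767 genes left without predicted loci, the median SD of the ratio was 0.43 to Col4a5 and 0.48 to Col4a6. It was 0.24 to Col4a1, 0.23 to Col4a2, 0.17 to Col4a3, 0.18 to Col4a4, 0.21 to Col8a1 and 0.17 to Col8a2. The measure depends on how much a gene itself varied, so SDs and ranks are not directly comparable between members. Col4a3 and Col4a4 ranked 1145 and 1295 for each other (SD 0.13), while Col8a2 ranked 20 for Col8a1 and Col8a1 ranked 378 for Col8a2 (SD 0.10). Without the right eye of animal 66, Col4a5 and Col4a6 were still each other's nearest gene (SD 0.06). Without the right eye of animal 65, Col4a2 ranked 4 for Col4a1 and Col4a1 ranked 8 for Col4a2, while Col4a5 and Col4a6 kept rank 1 for each other.

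The same measure was taken for all head-to-head genes. Of 525 pairs of protein-coding genes averaging 5 CPM or more and with starts within 2000 bases of each other, 2 (0.381%) were each other's nearest gene, and these were Col4a1 with Col4a2 and Col4a5 with Col4a6. The median rank over the 525 pairs was 3344, and the median SD of the log2 ratio was 0.15. A small SD was not particular to the collagen pairs. Vti1a and Zdhhc6 had an SD of 0.048 (ranks 6 and 7), against 0.063 for Col4a1 and Col4a2. Without the right eye of animal 65, Col4a1 and Col4a2 were no longer each other's nearest gene. This comparison is a description over 10 libraries from 5 animals that share tissue makeup, and it was chosen after the levels had been seen. Its ranks also depend on how much each gene itself varied. The 22 bases shared by Col4a1 and Col4a2 are a small part of exon lengths of 7464 and 6619 bases, and Col4a5 and Col4a6 share none. The part of read assignment in the likeness of these pairs was not tested.

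The other genes nearest to the members differed from chain to chain. They were ranked over all 10 libraries only, with no library left out, and could be nearly tied, as at SDs of 0.0544 to 0.0548 for Col8a2. After Col4a2, the nearest named genes to Col4a1 were Ggt1 and Rab4b (SD 0.10 each), and after Col4a1 those to Col4a2 were Lims2 and Ttr (SD 0.08 each), Ttr encoding the retinol carrier transthyretin of the RPE. Col4a3 was nearest to Vegfa, the vascular endothelial growth factor, Gtf2b and the pericyte gene Rgs5 (SD 0.06 each), and Col4a4 to Ehd4, Gab2 and St3gal6 (SD 0.04 to 0.05). Col8a1 was nearest to the collagen-degrading cathepsin gene Ctsk, the fibroblast protease gene Fap and Azin1 (SD 0.05 to 0.07), and Col8a2 to the small proteoglycan gene Bgn, Vps53 and the lactate transporter gene Slc16a1 (SD 0.05 each). Col15a1 was nearest to the retinoic acid synthesis gene Aldh1a2, the laminin chain gene Lamc3 and C1qtnf2 (SD 0.14 to 0.17), and Col18a1 to Rhoj, Dpy19l3 and Tenm4 (SD 0.09 to 0.10). Col4a5 was followed by Gfra1, a receptor subunit for glial cell line-derived neurotrophic factor, and by Folr1, a folate receptor (SD 0.08 and 0.09), and Col4a6 by Folr1 and Dhrs1 (SD 0.11 and 0.12).

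The levels of Col4a5 and Col4a6 were set beside genes of the ciliary body epithelium, the tissue at the front of the eye that secretes aqueous humour. The list of 7 such genes, of which none was at 0, summed to 284, 451.5, 356, 255 and 317 CPM in the right eyes of animals 61, 64, 65, 66 and 68, and to 339, 393, 418, 457 and 343 CPM in their left eyes. The 4 libraries lowest in Col4a5, the right eyes of animals 66, 61 and 68 and the left eye of animal 61, were also the 4 lowest in this sum, in the same order, and the 2 highest were the same as well. Zic1, a transcription factor gene of the list, was at 3.63 CPM in the right eye of animal 66 and 18.3 CPM in its left eye, and Optc, which encodes the vitreous proteoglycan opticin, was at 8.97 and 52.1 CPM. The bicarbonate transporter gene Slc4a4 was at 75.3 and 169 CPM in the right and left eye of animal 66. The genes of the list did not all follow the collagens. Wfdc1 was at 14.7 CPM in the right eye of animal 66, near its mean of 14.8 CPM, though highest in its left eye (17.2 CPM). Cldn2 was lowest in the right eye of animal 66 (17.5 CPM), but its left eye, at 20.9 CPM, was below the gene's mean of 21.2 CPM. Slc4a4 and Aqp1, which are known from other ocular cells too, had the highest CPM of the list (means of 131 and 139.8 CPM). These 2 genes made up most of the list's sum, so its order over libraries is largely theirs. Car2, a carbonic anhydrase gene, was highest in the right eye of animal 68 (14.8 CPM), where Col4a5 was at 51.9 CPM. Optc was highest in the left eye of animal 65 (100.1 CPM), and Zic1 was second lowest in the left eye of animal 68 (6.20 CPM), where Col4a5 was at 65.8 CPM. Other tissue also differed between the eyes of animal 66: the surface epithelium and cornea list summed to 119.9 CPM in its right and 829 CPM in its left eye, the Schwann cell and myelin list to 177 and 326 CPM, and the skeletal muscle list to 7476 and 2014 CPM. The part of ciliary or other tissue in the Col4a5 and Col4a6 levels was not tested.

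**Figure D5:**
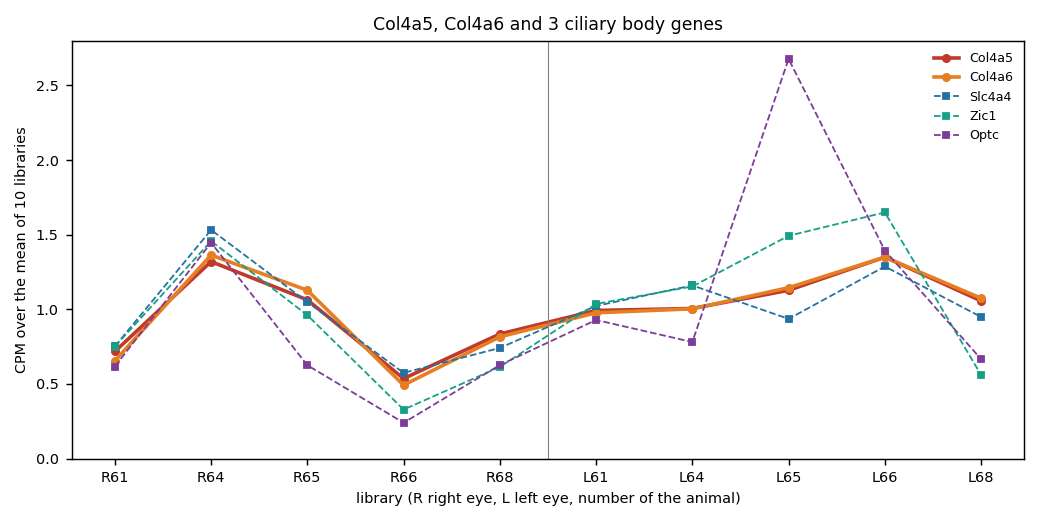
Level of Col4a5 and Col4a6 (solid lines) and of Slc4a4, Zic1 and Optc (dashed lines) in each library, as CPM over the gene's mean of the 10 libraries. The dashed genes are taken from the 7 listed ciliary body genes, and the others are not drawn. Right eyes stand left of the vertical line and left eyes right of it. All 5 genes are low in the right eye of animal 66 (Col4a5 33.3 CPM) and above their mean in its left eye (Col4a5 84.0 CPM), while Optc in the left eye of animal 65 and Zic1 in that of animal 68 part from the collagens.

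The partners of these collagens were measured in the same libraries. Of 22 other basement membrane genes (laminins, nidogens, perlecan, agrin and relatives), 22 were tested. Between the eyes 0 of them passed in either direction, as 0 of all 15414 genes did, with a median difference of -0.01 on the log2 scale. The highest in CPM were Sparc, a collagen-binding matricellular protein (1797 ± 134 CPM in right and 1725 ± 219 CPM in left eyes), Hspg2, which encodes perlecan (219 ± 29.1 and 215 ± 23.3 CPM), and the laminin chain gene Lamb2 (182 ± 14.5 and 178 ± 15.5 CPM; SD, n = 5 each). Of 12 receptors, led by the integrin chains Itgav (252 ± 27.4 CPM in right and 241 ± 26.4 CPM in left eyes) and Itgb1 (161 ± 10.9 and 159 ± 12.1 CPM) and the collagen receptor Ddr2 (144 ± 16.6 and 146 ± 8.94 CPM), 0 passed, with a median of -0.03.

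Of 14 genes for collagen folding, hydroxylation and export, 0 passed, with a median of -0.01. Serpinh1, the collagen chaperone, was at 197 ± 27.1 CPM in right and 191 ± 31.8 CPM in left eyes, P4hb, a subunit of prolyl hydroxylase, at 125 ± 5.46 and 127 ± 9.20 CPM, and Mia3, an export factor for large cargo, at 75.3 ± 5.21 and 73.8 ± 4.66 CPM (SD, n = 5 each). Of 12 other genes of Bruch's membrane and drusen, 0 passed, with a median of -0.04. Timp3, the metalloproteinase inhibitor deposited in Bruch's membrane, was at 2202 ± 315 CPM in right and 2031 ± 251.5 CPM in left eyes, Apoe, a lipid carrier, at 952 ± 137 and 962 ± 75.4 CPM, and the lysosomal protease gene Ctsd at 845 ± 98.4 and 774 ± 76.8 CPM (SD, n = 5 each). As 0 of all 15414 genes passed between the eyes, these counts of 0 are not particular to the lists. An unadjusted p under 0.05 in limma was reached there by 2 of the 22 basement membrane genes and 1 of the 12 receptors. It was reached by 0 of the 14 folding and export genes and 1 of the 12 Bruch's membrane genes, against 2.79% of all genes. No gene of these 4 lists passed the test between animals either, as 0.0843% of all genes did.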

How the data were processed

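The authors deposited 1 table of normalized values, which behave as CPM to which 1e-04 had been added; this constant was removed. STAR, Partek and the GRCm38 (mm10) build appear in the submitters' processing notes, and the sources used here give no versions, annotation release or use of strand. Per the labels' protocols, 1 μg of total RNA per sample went into a stranded kit with ribosomal RNA depletion. CPM is relative, so a gene can read lower because abundant transcripts read higher. Between 42.7% and 47.1% of each library's CPM fell on listed genes. In each library 88.7% to 89.8% of low values were whole multiples of a step (tolerance 0.05), which gave the implied totals but not whole reads for every gene, so no count test was run. Floors cover counting error only.

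Gene starts were taken from the deposited table and ends from its stop column less 1. Both equal GENCODE M21 for all 10 members (99.4% of starts over 25686 genes matched by name). Exon lengths are the union of GENCODE M21 exons. Levels were tested as log2(CPM + 0.230), a scale that understates the change of low genes, in genes averaging 1 CPM or more, by limma 3.58.1 in R 4.3.3 with an intensity trend, terms for animal and eye side, and 4 degrees of freedom left for the residual, with p-values adjusted over all genes by Benjamini-Hochberg. The animal term was also tested by F. The animal entered as a block because titles share animal numbers and the protocol compares fellow eyes. The correlation of fellow-eye deviations was over 0.1 in 2 of 5 animals, and 0 animals had eyes that differed in sex-linked genes. All 45 pairs of libraries differed by more than counting noise, with a chi-square of at least 13.0 for each degree of freedom. P-values of both tests are judged against the spread of fellow-eye differences over these animals, with a variance moderated over all genes. The labels give no batch. The fits were tested on the deposited values after known folds had been placed into sampled genes. The figures were drawn by matplotlib 3.10.9 under Python 3.11.15.

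The members and gene lists were chosen with earlier results of these data known. Named were all 10 members, the 3 genes with the highest CPM of each pathway list, and the 3 genes nearest to each member, with predicted loci left out. Alternatives covered the block, scaling, pseudocount, filter, moderation, transcript length and each animal or library left out.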

Additional observations from a re-analysis of the deposited data

Results flagged for a closer look

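In groups of 5 libraries, a library was singled out when its gap to the nearest other exceeded 0.71 of the group's range (Dixon's criterion), which chance meets in about 1 group in 20; 30 groups of members' levels and chain ratios were checked and 4 met it. Col4a4 stood at 71.7 CPM in the left eye of animal 61, above the other left eyes at 58.1 to 61.04 CPM. Col8a1 stood at 434.7 CPM in the right eye of animal 64, below the other right eyes at 526 to 554 CPM. Col15a1 stood at 26.9 CPM in the left eye of animal 68, above the other left eyes at 15.8 to 18.7 CPM, and the log2 ratio of Col15a1 to Col18a1 was -2.10 in that eye, against -3.02 to -3.27 in the other left eyes.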

How the results depend on the processing

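With no animal block, 0 genes and 0 members passed between the eyes, and the same counts held for the 2 scalings, 2 pseudocounts, 2 filters, robust moderation and each animal left out. Leaving out 1 library of an animal removes that animal from the blocked comparison, so it was not run apart. The block changed no other call. The sign of the right-minus-left difference turned when animals were left out for Col4a1 (-0.018 to 0.27), Col4a2 (-0.034 to 0.22), Col4a4 (-0.014 to 0.11) and Col15a1 (-0.16 to 0.11), and for no member under the other alternatives. For Col4a5 it ran from -0.55 to -0.12 and for Col4a6 from -0.61 to -0.14. The number of genes that passed between animals was 25 with eye side dropped as a term, and 5 to 11 with an animal or a library left out, against 13; the cause was not tested, and 0 members passed in any of these. With the longest transcript as length, the mean of Col8a1 was 97.7, that of Col18a1 25.9 and that of Col4a3 9.28 CPM per kb. The ranges of Col8a1 and Col8a2 then overlapped. A pseudocount of 0 moved no chain ratio by more than its SD. The alternatives for likeness were chosen after the data were seen. With 5 animals, the SE was 0.21 for Col4a5 and 0.24 for Col4a6, against a median of 0.09 over all genes, so differences of the size seen in these genes were not detectable.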
